A study of Mus musculus with 6 samples.

Results

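The 8 genes of interleukin-6, leukaemia inhibitory factor (LIF) and gp130 signalling were followed across 3 genotypes of mouse muscle satellite cells, the stem cells of skeletal muscle. They were chosen by name as parts of this pathway, by a rule that sets no threshold on their values but was made with earlier results of these data known, and all 8 were found among the 54123 genes to which reads could be assigned. The ligands were Il6 and Lif, the receptors Il6ra, Osmr, Lifr and Il6st, and the intracellular members Stat3 and Socs3. The cells came from the tibialis anterior and gastrocnemius of adult C57BL/6 mice injected there with cardiotoxin, a snake toxin that kills fibres and starts regeneration, and were collected by fluorescence sorting 30 h later. All groups shared the injury, the strain and the sort. The Jmjd3 KO cells were knockouts of JMJD3 (gene Kdm6b) and the Utx KO cells were knockouts of UTX (gene Kdm6a). Both enzymes remove methyl groups from a repressive lysine on histone H3. The third genotype, Tdt control, was the reference, which the series describes as wild type. The sources used here do not say which Cre driver or alleles made the knockouts or what Tdt stands for, and they do not say whether the 2 libraries of a genotype came from separate animals, so p-values measure only the spread between these libraries.

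Cytokines of the interleukin-6 family signal through gp130, the shared receptor chain encoded by Il6st. Interleukin-6 first binds its own receptor Il6ra and then pairs gp130, LIF brings gp130 together with Lifr, and oncostatin M brings it together with Osmr. The paired receptors activate JAK kinases, which phosphorylate STAT3, and STAT3 turns on Socs3, which binds gp130 and JAK and shuts the signal down. In injured muscle, interleukin-6 and LIF are known as signals that act on the proliferation and differentiation of myogenic cells.

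Promoters of 3 members are printed because the letters of motifs for factors of this pathway, or of factors known to drive cytokine genes, stand in them. They are the 250 bases before the RefSeq start in GRCm38.p6, on the strand of the gene, with the motif letters in capitals: Il6 at chr5:30012864-30013113 (plus strand), Lif at chr11:4257318-4257567 (plus strand) and Socs3 at chr11:117969367-117969616 (minus strand).
Il6: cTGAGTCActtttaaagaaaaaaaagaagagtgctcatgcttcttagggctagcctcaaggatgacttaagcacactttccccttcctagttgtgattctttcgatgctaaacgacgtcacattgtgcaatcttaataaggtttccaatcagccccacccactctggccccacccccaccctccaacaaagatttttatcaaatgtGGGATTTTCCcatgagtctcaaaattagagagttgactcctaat
Lif: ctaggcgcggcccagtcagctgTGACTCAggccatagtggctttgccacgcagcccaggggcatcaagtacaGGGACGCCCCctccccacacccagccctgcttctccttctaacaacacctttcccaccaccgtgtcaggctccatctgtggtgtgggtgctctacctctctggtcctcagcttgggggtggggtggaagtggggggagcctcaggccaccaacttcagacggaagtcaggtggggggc
Socs3: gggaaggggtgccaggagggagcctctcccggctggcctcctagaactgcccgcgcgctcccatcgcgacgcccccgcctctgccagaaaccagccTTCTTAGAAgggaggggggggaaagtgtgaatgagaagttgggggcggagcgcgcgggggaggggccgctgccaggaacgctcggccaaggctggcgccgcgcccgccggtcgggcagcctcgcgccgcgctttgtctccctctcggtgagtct
The search covered both strands for the STAT core TTCNNNGAA, for the AP-1 letters TGANTCA and for the NF-kB consensus, and no 2 matches overlapped. Il6 held TGAGTCA at -249 to -243 and the NF-kB letters GGGATTTTCC at -44 to -35, counted from the start site. Lif held TGACTCA at -228 to -222 and the NF-kB letters GGGACGCCCC at -178 to -169, and Socs3 held the STAT core TTCTTAGAA at -154 to -146. The promoters of the other members (Il6ra, Il6st, Osmr, Stat3 and both of Lifr) held none of these letters in this window. Among 32851 RefSeq promoters of the same length, 7.02% held the STAT core, 6.75% the AP-1 letters and 7.25% the NF-kB consensus, and 117 (0.356%) held both AP-1 and NF-kB letters, as Il6 and Lif did. No binding or histone data were used here, so a match describes the sequence alone.

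The libraries held 53750675 to 77675388 estimated reads, and 17084 genes, all 8 members among them, passed the filter for low counts. Kdm6b gave 29.9 and 22.7 CPM in the controls and 15.9 and 16.5 in the Jmjd3 KO libraries (log2 fold change -0.70 ± 0.12 SE, edgeR quasi-likelihood test with Benjamini-Hochberg adjustment, adjusted p = 0.0243). CPM are read counts brought to the same normalised library size. The call was lost when either Jmjd3 KO library was left out, with log2 fold changes of -0.67 without replicate 1 and -0.72 without replicate 2. The transcript was not absent in the libraries labelled Jmjd3 KO, which held 1044 and 1067 reads of it. Kdm6a gave 32.8 and 34.0 CPM in the controls and 7.68 and 7.38 in the Utx KO libraries. All 10 satellite cell markers were present in every library, with Pax7 at 134 to 148 CPM and a summed level of 3851 to 4155 CPM. Markers of other cells were present as well, with sums of 129 to 267 CPM for 12 neutrophil markers and 195 to 322 CPM for 13 macrophage and monocyte markers, while 6 lymphoid markers summed to at most 0.224 CPM.

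Socs3, the feedback inhibitor, was the most abundant of the 8 transcripts per length, and Il6ra, the receptor chain specific for interleukin-6, the least. Levels between genes are given in TPM, in which reads are divided by transcript length before scaling to a common total. Over the 6 libraries Socs3 averaged 99.8 TPM (85.0 to 114), the shared chain Il6st 41.8 (34.3 to 47.1) and the transcription factor Stat3 19.4 (15.5 to 23.4), and the ranges of these 3 genes did not overlap. The oncostatin M receptor Osmr averaged 6.18 TPM (5.30 to 7.26), Il6 6.02 (3.92 to 7.86), the LIF receptor Lifr 5.45 (4.95 to 6.48) and Lif 3.88 (2.79 to 5.87). Each of these 4 overlapped its neighbour in the order, so their ranks among themselves are not separated by the spread. The values of Osmr include retained-intron transcripts and those of Lif a short transcript, both described below. Il6ra averaged 0.710 TPM (0.478 to 0.975), below the lowest value of every other member.

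**Figure D1:**
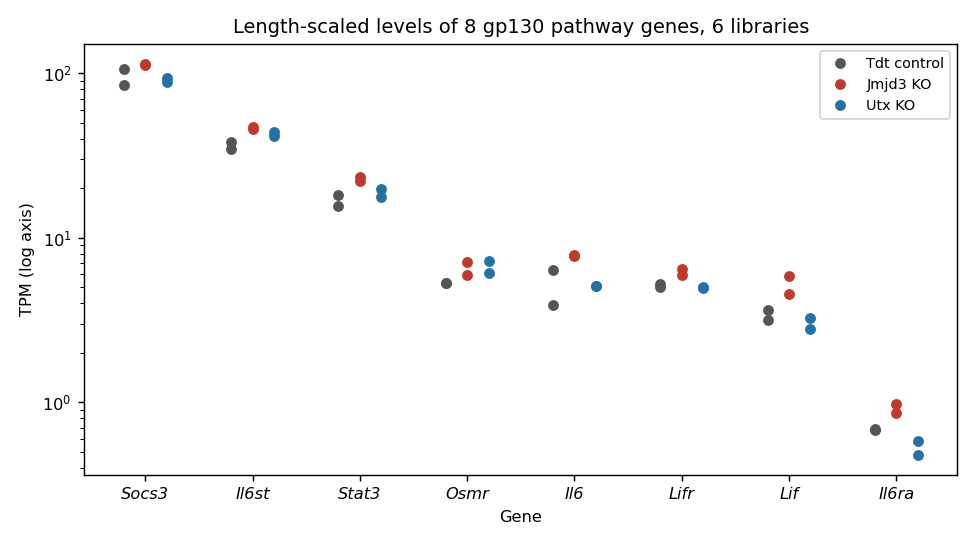
TPM (log axis) of the 8 genes, ordered by their mean, with 1 point per library coloured by genotype. Socs3, Il6st and Stat3 stand above the rest, Osmr, Il6, Lifr and Lif overlap between 2.79 and 7.86 TPM, and Il6ra stays under 1 TPM in every library.

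The shared chain was thus far more abundant than the specific ones. Il6st exceeded Il6ra in TPM by a factor of 46.8 to 91.3, and both Utx KO libraries (71.9 and 91.3) had a higher ratio than the other 4 libraries. The ratio of Osmr to Lifr, which both pair with gp130, lay between 0.997 and 1.1 in Jmjd3 KO and Tdt control. It was 1.47 and 1.22 in Utx KO. These ratios count the retained-intron transcripts of Osmr. Without them Osmr had 2.63 to 4.21 TPM, below the 4.95 to 6.48 TPM of Lifr. Socs3 exceeded Stat3 by a factor of 4.46 to 5.87. Both Tdt control libraries (5.49 and 5.87) had a higher ratio than every knockout library. The knockouts overlapped each other, at 5.17 and 4.80 in Jmjd3 KO and 4.46 and 5.30 in Utx KO. Il6 exceeded Lif by a factor of 1.23 to 1.83, with the 3 genotypes overlapping. The Lif values in this ratio include 0.494 to 1.81 TPM of the short transcript Lif-203, so without it the ratio would be higher.

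Reads fell mostly on the main protein-coding transcripts of each gene. Socs3-201 took nearly all reads of Socs3, Stat3-203 took 92.7% and Il6-201 92.2%. Lif was split between Lif-201 (68.4%) and Lif-202 (30.4%), and Il6ra between Il6ra-201 (51.9%) and Il6ra-202 (48.1%). Lif-203, of 390 bases and not labelled as protein-coding, took 1.17% of Lif reads. It was listed at 0.494 to 1.81 TPM by library, highest in Jmjd3 KO replicate 1. Lifr-203 and Lifr-201 took 74.8% and 21.9%, and Il6st-201 and Il6st-203 took 62.0% and 34.9%. For Osmr, Osmr-201 took 80.0%, and 4 retained-intron transcripts together took 18.5% (14.7% to 23.0% by library, with the genotypes overlapping). In TPM these 4 made up more of the gene, at 2.16 to 3.58 of 5.30 to 7.26. Without them Osmr had 2.63 and 3.14 TPM in the controls. The Jmjd3 KO libraries then had 3.57 and 3.56 TPM and the Utx KO libraries 4.21 and 3.17.

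The TPM of Il6st depended on a short transcript. Il6st-205, of 322 bases, took 0.576% of the gene's reads, yet it was listed at 5.23 and 0 TPM in the controls, 8.98 and 8.26 in the Jmjd3 KO libraries and 9.03 and 10.9 in the Utx KO libraries. Without it, Il6st had 33.0 and 34.3 TPM in the controls, 36.6 and 38.8 in the Jmjd3 KO libraries and 32.6 and 32.7 in the Utx KO libraries. With it, both knockouts lay above both control libraries in TPM. Without it only Jmjd3 KO did, which is also the order of the read counts.

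The first comparison, Jmjd3 KO with Tdt control, asks how the pathway's transcripts differ in cells labelled as JMJD3 knockouts. Lif was higher, by 1.43-fold, and it was the single member that edgeR called at an adjusted p under 0.05. The other 7 members had both Jmjd3 KO libraries above both control libraries too, by smaller or less certain amounts that did not pass the test. The share called, 1 of 8, stands beside 3.0% of all genes tested (1.97% called higher). Groups that do not overlap with Jmjd3 KO above were seen for 26.2% of all genes, against 8 of 8 members. The median log2 fold change was 0.23 for the members and -0.00 for all genes. The fold changes of all 8 members stayed above 0 under each of 15 alternative settings of the fit. These values describe the members and do not set them apart from other genes.

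Lif had 14.3 and 14.1 CPM in the Tdt control libraries, 21.6 and 19.0 in those of Jmjd3 KO and 12.6 and 13.2 in those of Utx KO. Both Jmjd3 KO libraries lay above the other 4, and Utx KO lay just below the control. Lif rose in Jmjd3 KO by 0.51 ± 0.08 on the log2 scale (SE, 95% interval 0.34 to 0.69, 2 libraries per group, edgeR adjusted p = 0.0171), on 678 to 1415 reads per library. The call was lost when Jmjd3 KO replicate 1 was left out (log2 fold change 0.42, adjusted p = 0.129), or Tdt control replicate 1 (0.53, adjusted p = 0.0770), or Tdt control replicate 2 (0.51, adjusted p = 0.0748), and with transcript length offsets (0.52, adjusted p = 0.133). In the authors' deposited table, Lif had a log2 fold change of 0.41 ± 0.18 with an adjusted p of 0.0232. The column headers do not say whether the deposited fold changes were pulled towards 0. Their sizes and errors, here and for other members, are therefore not set against those of edgeR.

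Il6 gave 3.80 and 6.45 CPM in the controls, 6.98 and 6.69 in the Jmjd3 KO libraries and 5.25 and 5.07 in the Utx KO libraries. The 2 control libraries lay further apart than any other pair of replicates for this gene, and both Utx KO libraries lay between them. The difference between Jmjd3 KO and control was 0.42 ± 0.21 (95% interval -0.07 to 0.91, edgeR adjusted p = 0.323), on 282 to 458 reads per library. The value turned on the control libraries: without Tdt control replicate 2 the log2 fold change was 0.85 (edgeR adjusted p = 0.0329), and without Tdt control replicate 1 it was 0.082 (0.755). Il6 also passed the test when no filter for low counts was used (0.43, adjusted p = 0.0183). In the authors' deposited table, Il6 had an adjusted p of 0.198.

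**Figure D2:**
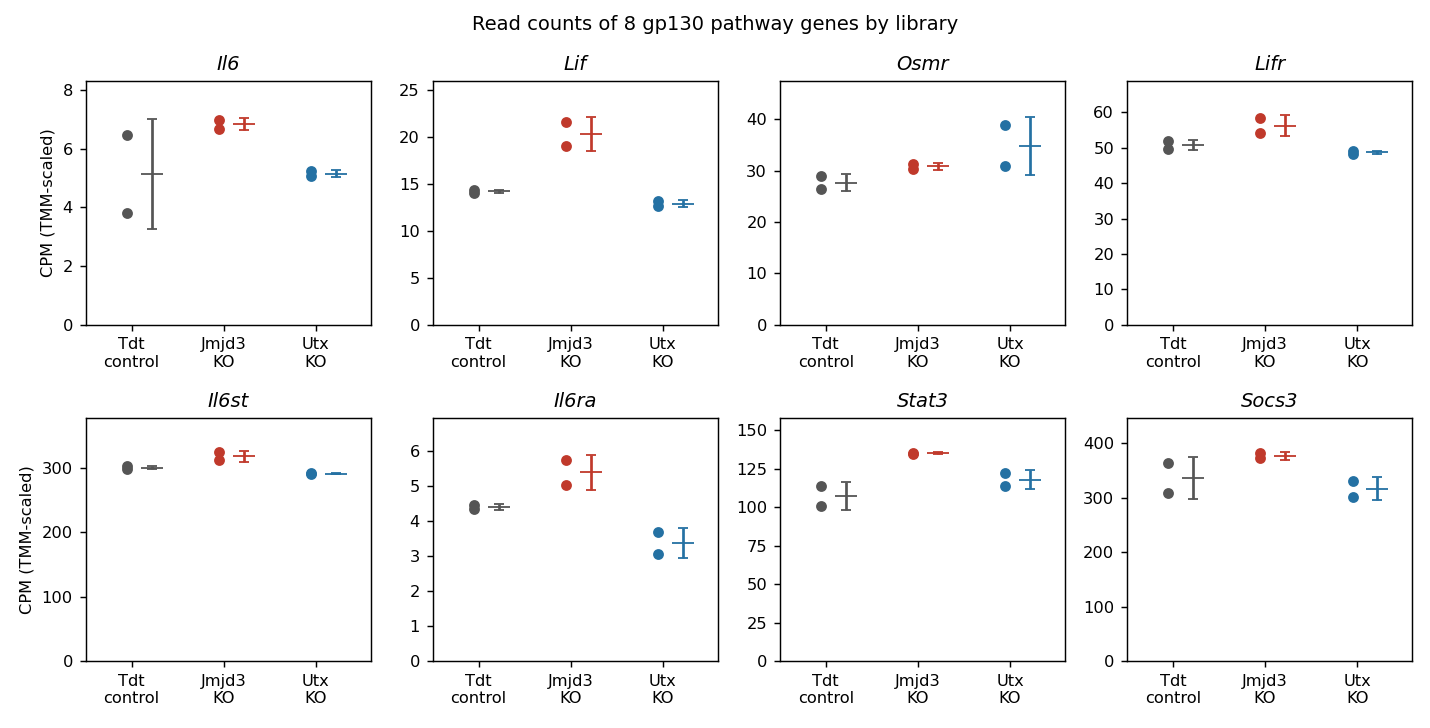
CPM of each of the 8 genes by genotype, with a point per library and, beside it, the mean ± SD of the 2 libraries (each vertical axis starts at 0). Lif is separated in Jmjd3 KO from the other 4 libraries, while the Il6 control libraries span 3.80 to 6.45 CPM.

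Of the receptors, none passed the test in Jmjd3 KO. Il6ra had 4.34 and 4.46 CPM in the Tdt control libraries, 5.76 and 5.05 in those of Jmjd3 KO and 3.68 and 3.08 in those of Utx KO, so the 3 genotypes were ordered without overlap. Its difference from control was 0.30 ± 0.13 (95% interval 0.00 to 0.59, edgeR adjusted p = 0.248), on 181 to 378 reads per library. Lifr gave 49.7 and 51.8 CPM in the controls, 54.1 and 58.4 in the Jmjd3 KO libraries and 49.0 and 48.3 in the Utx KO libraries, and its difference was 0.15 ± 0.06 (interval 0.02 to 0.28, edgeR adjusted p = 0.191).

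Osmr had 26.5 and 28.9 CPM in the Tdt control libraries, 30.4 and 31.3 in those of Jmjd3 KO and 38.9 and 30.9 in those of Utx KO. It was the member with the largest scatter in Utx KO after scaling to its mean, and its difference between Jmjd3 KO and control was 0.16 ± 0.10 (interval -0.08 to 0.39, edgeR adjusted p = 0.438). Il6st, the shared chain, gave 302 and 299 CPM in the controls, 312 and 324 in the Jmjd3 KO libraries and 292 and 290 in the Utx KO libraries. Its difference of 0.08 ± 0.04 (interval -0.02 to 0.18, edgeR adjusted p = 0.346) was the smallest of the 8. In the authors' deposited table, Il6st had 0.21 ± 0.08 with an adjusted p of 0.0245, and transcript length offsets in the edgeR fit moved its value to 0.26 (adjusted p = 0.125).

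Stat3, the transcription factor, had 101 and 114 CPM in the Tdt control libraries, 136 and 135 in those of Jmjd3 KO and 123 and 114 in those of Utx KO. The Jmjd3 KO libraries were the highest, and Utx KO and control overlapped. Its log2 fold change in Jmjd3 KO was 0.33 ± 0.07 (95% interval 0.16 to 0.50, edgeR adjusted p = 0.0549), just outside the threshold. It passed in DESeq2 (adjusted p = 4.87e-04) and, in edgeR, with protein-coding genes only (0.0328), with a filter of 5 CPM in 2 libraries (0.0426) and with no filter for low counts (1.73e-05). In the authors' deposited table, Stat3 had 0.31 ± 0.09 with an adjusted p of 0.00231. Socs3 gave 309 and 363 CPM in the controls, 381 and 372 in the Jmjd3 KO libraries and 301 and 331 in the Utx KO libraries. Its difference of 0.16 ± 0.08 (interval -0.02 to 0.35, edgeR adjusted p = 0.305) did not pass, except with no low-count filter (0.17, adjusted p = 0.0344).

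Lif, Stat3 and Socs3 lie on chromosome 11, the chromosome of Kdm6b. In GRCm38 with GENCODE M21, Lif spans 4257557 to 4272514 (65.1 Mb from Kdm6b), Stat3 100885098 to 100939540 (31.5 Mb) and Socs3 117966079 to 117970047 (48.6 Mb). In Jmjd3 KO against control, 8.10% of the 1284 genes tested on chromosome 11 were called, against 2.59% on the other chromosomes. Within 5 Mb of Kdm6b, 18 of 162 genes (11.1%) were called. Within 5 Mb of Lif it was 1 of 91, of Stat3 15 of 188 (7.98%) and of Socs3 6 of 181 (3.31%). Of the other pathway genes described by name, Osm and Stat5a also lie on chromosome 11. What position on the chromosome contributes to these genes was not tested.

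The second comparison, Utx KO with Tdt control, asks the same of UTX. No member was called by edgeR, against 1.72% of all genes. An unadjusted p under 0.05 was seen for 2 members, Osmr and Il6ra, as for 2768 of all 17084 genes. DESeq2 called 0 members as well, and leaving out the low-count filter called 1, Osmr (0.34, adjusted p = 2.77e-04). Osmr was the highest above control, at 0.33 ± 0.10 (95% interval 0.10 to 0.57, edgeR adjusted p = 0.166), with Utx KO replicate 1 at 38.9 CPM and replicate 2 at 30.9, both above the control libraries. Il6ra was the furthest below, at -0.38 ± 0.13 (interval -0.69 to -0.08, edgeR adjusted p = 0.211). Groups did not overlap for 1 member above and 4 below control, where 22.3% and 23.3% of all genes did so.

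The other 6 members had smaller differences from the control in Utx KO. Lif was at -0.14 ± 0.08 (95% interval -0.32 to 0.04, edgeR adjusted p = 0.437), Lifr at -0.06 ± 0.06 (0.663) and Il6st at -0.05 ± 0.04 (0.670). Stat3 was at 0.14 ± 0.07 (0.405), Socs3 at -0.09 ± 0.08 (0.655) and Il6 at 0.01 ± 0.22 (0.983). The interval for Il6, -0.49 to 0.52, leaves room for changes of the size that Lif showed in Jmjd3 KO, whereas the intervals of Lifr (-0.19 to 0.07) and Il6st (-0.15 to 0.06) do not. The sign for Il6 turned without Tdt control replicate 1 (-0.32), and that for Il6st with transcript length offsets (0.23). In the authors' deposited table no member had an adjusted p under 0.05 in Utx KO, the lowest being Il6st (0.0666) and Osmr (0.0922).

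**Figure D3:**
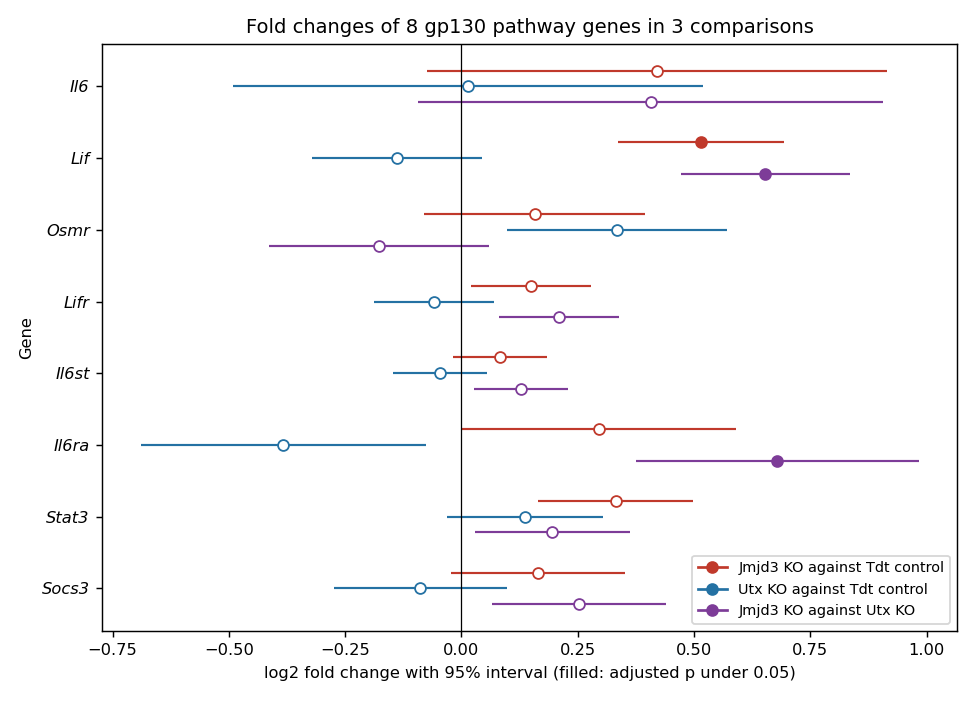
log2 fold changes (points) with 95% intervals (lines) of the 8 genes in 3 comparisons, filled where the adjusted p was under 0.05. All 8 red points lie above 0, the blue points scatter around 0, and Lif and Il6ra are filled in the comparison of the knockouts.

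The knockouts were also compared with each other, which tests whether their departures differ. Lif and Il6ra were higher in Jmjd3 KO than in Utx KO, 2 of 8 members against 8.02% of all genes (5.13% called higher). Lif was higher by 0.65 ± 0.08 (1.57-fold, 95% interval 0.47 to 0.83, edgeR adjusted p = 0.00430), a call that held under all 15 alternatives (adjusted p up to 0.0459). Il6ra was higher by 0.68 ± 0.13 (1.60-fold, interval 0.37 to 0.98, edgeR adjusted p = 0.0225). Each library mattered to that call, which was lost without Jmjd3 KO replicate 1 (adjusted p of 0.131), Jmjd3 KO replicate 2 (0.0644), Utx KO replicate 1 (0.0594) or Utx KO replicate 2 (0.0950). Both Jmjd3 KO libraries lay above both Utx KO libraries in 7 of 8 members, as in 28.6% of all genes, and Osmr was the exception, with overlapping groups and -0.18 ± 0.10 (edgeR adjusted p = 0.323).

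The other 5 members did not pass in edgeR between the knockouts, and DESeq2 called Lifr (adjusted p = 0.0340) and Socs3 (0.0271). Lifr was at 0.21 ± 0.06 (edgeR adjusted p = 0.0630), Socs3 at 0.25 ± 0.08 (0.101) and Il6st at 0.13 ± 0.04 (0.119). Stat3 was at 0.20 ± 0.07 (0.141) and Il6 at 0.41 ± 0.21 (0.282). In edgeR, Lifr passed with the filter of 5 CPM (0.0407) and Socs3 with only the 4 libraries compared (0.0409), and with all genes with reads kept Il6, Lifr, Socs3 and Stat3 all passed (9.79e-05 to 0.0341). Control libraries bore on these values through the shared spread: without Tdt control replicate 1, Il6 (adjusted p = 0.0494) and Socs3 (0.0456) were called, and without Tdt control replicate 2, Socs3 (0.0483). The 3 comparisons share libraries, so their values are given side by side and are not independent of each other.

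The wider pathway was read from lists by role, of 62 further genes, 58 of them tested (not Ctf2, Il27, Il31 and Il31ra). In Jmjd3 KO edgeR called 6 higher than control and 0 lower (10.3% called, against 3.0% of all genes), with a median of 0.10 against -0.00. An unadjusted edgeR p under 0.05 was seen for 21 of the 58, as for 3410 of all 17084 genes tested. DESeq2 called 16, and 1084 of all genes. In Utx KO edgeR called 0 (1.72% of all genes), with 12 at an unadjusted p under 0.05 against 2768 of all genes. DESeq2 called 8 there, and 695 of all genes. The same counts over all genes stand beside the role lists below. Between the knockouts 7 were higher and 1 lower in Jmjd3 KO (13.8%, against 8.02%).

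Of the 7 tested ligands, edgeR called 0 in either knockout against control (2 in Jmjd3 KO and 0 in Utx KO had an unadjusted p under 0.05), and DESeq2 called 1, Osm, in Jmjd3 KO. Oncostatin M (Osm), a ligand of Osmr, had 4.58 and 5.81 CPM in the Tdt control libraries. The Jmjd3 KO libraries had 8.77 and 6.86 CPM of Osm and the Utx KO libraries 3.68 and 4.61. It was at 0.59 ± 0.17 against control (edgeR adjusted p = 0.114, DESeq2 0.0396, and 1.11e-04 in edgeR when all genes with reads were kept) and higher than in Utx KO by 0.91 ± 0.18 (0.0232), a call lost without Jmjd3 KO replicate 1 (0.125), Utx KO replicate 1 (0.140) or Utx KO replicate 2 (0.0504). Of the 5 tested partner receptors and sheddases, neither edgeR nor DESeq2 called any in the 3 comparisons (0, 1 and 0 had an unadjusted edgeR p under 0.05), and Adam10, a protease that cleaves receptors from the cell surface, was the most abundant of them at 17.0 TPM.

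Of 16 transducers, edgeR and DESeq2 called the same 2 higher in Jmjd3 KO than in control. In Utx KO edgeR called 0 and DESeq2 called 1 higher, the kinase Mapk3. The kinase Jak2 gave 19.9 and 20.6 CPM in the controls and 27.4 and 24.8 in the Jmjd3 KO libraries (0.37 ± 0.07, edgeR adjusted p = 0.0306; 0.0591 with the replicate number as a block). Stat5a, a transcription factor used by many cytokines, gave 17.5 and 17.8 CPM in the controls and 23.2 and 23.3 in the Jmjd3 KO libraries (0.40 ± 0.06, 0.0151). Stat5a lies on chromosome 11, where 8.10% of genes were called, and it was also higher than in Utx KO, at 18.7 and 17.6 CPM (0.36 ± 0.06, 0.0121). Both genes lost the call against control without each of the 4 Jmjd3 KO and Tdt control libraries (adjusted p from 0.0786 to 0.211 for Jak2 and from 0.0573 to 0.128 for Stat5a). Stat5a lost that against Utx KO without either Jmjd3 KO library (0.0873 and 0.0977) or Utx KO replicate 2 (0.0560). Jak1, the main kinase of gp130, was at 0.08 ± 0.05 in Jmjd3 KO (adjusted p = 0.390).

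Of 8 negative regulators, edgeR called 0 in either knockout against control (1 in Jmjd3 KO and 0 in Utx KO had an unadjusted p under 0.05), and DESeq2 called 1, Ptpn6, in Jmjd3 KO. Ptpn6, a phosphatase best known from blood cells, gave 3.38 and 3.86 CPM in the controls, 6.00 and 4.99 in the Jmjd3 KO libraries and 3.35 and 3.30 in the Utx KO libraries. It was at 0.60 ± 0.13 against control (edgeR adjusted p = 0.0574), where it passed in DESeq2 (0.0184) and, in edgeR, with the filter of 5 CPM (0.0376), with protein-coding genes only (0.0383) and with all genes with reads kept (0.00106). It was higher than in Utx KO by 0.73 ± 0.14 (0.0205). The latter call was lost without Jmjd3 KO replicate 1 (0.120), Utx KO replicate 1 (0.107) or Utx KO replicate 2 (0.0837), and with transcript length offsets (0.0574). Ptpn2, a phosphatase of JAK and STAT proteins, was the most abundant of the list at 21.4 TPM and neither edgeR nor DESeq2 called it in any comparison.

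Of 17 genes known as STAT3 targets, edgeR called 3 higher in Jmjd3 KO than in control and 0 lower, where 3.0% of all genes were called. An unadjusted p under 0.05 was seen for 11, as for 3410 of all 17084 genes. DESeq2 called 7 higher and 2 lower, and 1084 of all genes in either direction. In Utx KO against control edgeR called 0 of the 17, with 9 at an unadjusted p under 0.05 (2768 of all genes). DESeq2 called 5 higher and 2 lower there, and 695 of all genes. Bcl3, an atypical IkB protein, had 15.4 and 14.6 CPM in the Tdt control libraries, 24.3 and 27.5 in those of Jmjd3 KO and 18.9 and 17.9 in those of Utx KO. It rose by 0.78 ± 0.07 (1.72-fold, edgeR adjusted p = 0.00327) and was called under all 15 alternatives. Cebpb, a transcription factor of the acute-phase response, gave 60.8 and 68.8 CPM in the controls, 95.1 and 85.2 in the Jmjd3 KO libraries and 82.7 and 82.5 in the Utx KO libraries (0.48 ± 0.08 in Jmjd3 KO, 0.0260). The kinase Pim1 had 67.2 and 63.7 CPM in the controls, 84.1 and 80.3 in the Jmjd3 KO libraries and 82.5 and 77.8 in those of Utx KO (0.33 ± 0.06 in Jmjd3 KO, 0.0365). For these last 2 genes the Utx KO libraries lay above the control as well, at 0.35 ± 0.08 for Cebpb (0.0919) and 0.29 ± 0.06 for Pim1 (0.0706), and DESeq2 called both there (0.00192 and 0.00112).

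These smaller calls depended on single libraries. Pim1 lost its call without any 1 of the 6 libraries (edgeR adjusted p from 0.0544 to 0.218) and with transcript length offsets (0.0985). Cebpb lost its call without Jmjd3 KO replicate 1 (0.165), Tdt control replicate 1 (0.105) or Utx KO replicate 2 (0.0520), and with length offsets (0.0951). Against Utx KO, Bcl3 (0.49 ± 0.07, 0.0107), Il4ra, a cytokine receptor (0.38 ± 0.05, 0.00855), and Cdkn1a, a cell cycle inhibitor (0.32 ± 0.05, 0.0104), were higher in Jmjd3 KO, and the growth regulator Myc was lower (-0.39 ± 0.08, 0.0270). Myc had 220 and 221 CPM in the Tdt control libraries, 184 and 181 in those of Jmjd3 KO and 259.5 and 217 in those of Utx KO. Against control, Myc in Jmjd3 KO was at -0.28 ± 0.08 (edgeR adjusted p = 0.112), and it was called lower by DESeq2 (0.0180) and by edgeR with only the 4 libraries compared (0.0455), without Utx KO replicate 1 (0.0475) or replicate 2 (0.0449), and with all genes with reads kept (3.77e-04). Bcl3 and Il4ra lost that call without Jmjd3 KO replicate 2 (0.0768 and 0.0540), Utx KO replicate 1 (0.0525 and 0.0609) or Utx KO replicate 2 (0.0531 and 0.0506). Cdkn1a lost it without any 1 of the 4 libraries compared (0.0556 to 0.0691), and Myc without Jmjd3 KO replicate 1 (0.121), Jmjd3 KO replicate 2 (0.155) or Utx KO replicate 1 (0.107).

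Of 5 genes that control the stability or translation of Il6 transcripts, or their transcription, edgeR called 1, Zfp36, higher in Jmjd3 KO than in control. An unadjusted p under 0.05 was seen for 3, and DESeq2 called 3 higher, Arid5a, Zc3h12a and Zfp36. Both Jmjd3 KO libraries lay above both controls in all 5 (26.2% of all genes). In Utx KO neither edgeR nor DESeq2 called any. Zfp36, whose protein binds AU-rich elements and promotes decay of cytokine transcripts, gave 205 and 229 CPM in the controls, 284 and 282 in the Jmjd3 KO libraries and 185 and 209 in the Utx KO libraries. It was higher than in control by 0.38 ± 0.07 (edgeR adjusted p = 0.0418) and than in Utx KO by 0.52 ± 0.08 (0.00891). The call against control was lost without each Jmjd3 KO or Tdt control library (0.0593 to 0.207) and with length offsets (0.0592). That against Utx KO was lost without either Jmjd3 KO library (0.0582 and 0.0530) or Utx KO replicate 1 (0.0602).

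**Figure D4:**
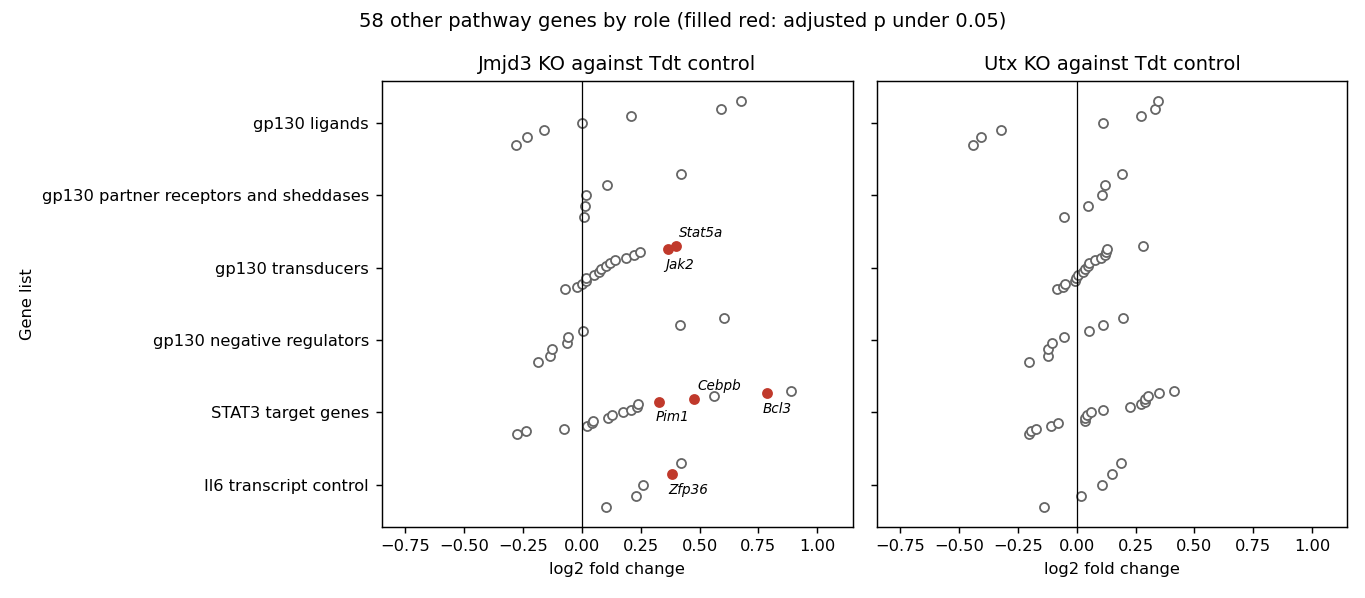
log2 fold changes of 58 other genes of the pathway, 1 point per gene, by role, in Jmjd3 KO (left) and Utx KO (right) against Tdt control, filled red where the adjusted p was under 0.05. Jak2, Stat5a, Bcl3, Cebpb, Pim1 and Zfp36 are filled on the left and no gene is filled on the right.

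Markers of some other cell types in the sorted samples differed between genotypes. The 12 neutrophil markers summed to 129 and 143 CPM in the controls, 267 and 202 in the Jmjd3 KO libraries and 176 and 208 in the Utx KO libraries, and 4 of the 10 tested rose in Jmjd3 KO against control by edgeR, where 3.0% of all genes were called. Of the 12 markers, 3 (Camp, Ngp and Ly6g) were under 1 CPM in every library. The 13 macrophage and monocyte markers summed to 219 and 266 CPM in the controls, 322 and 297 in the Jmjd3 KO libraries and 195 and 229 in the Utx KO libraries. Of these, 1 rose in Jmjd3 KO against control, 1 fell in Utx KO (1.72% of all genes were called there), and 6 were higher in Jmjd3 KO than in Utx KO (8.02%). The one that rose was Cd14, a receptor for bacterial lipopolysaccharide, with 68.9 and 74.9 CPM in the controls, 132 and 106 in the Jmjd3 KO libraries and 78.2 and 90.6 in the Utx KO libraries. The median of the 13 in Jmjd3 KO against control was 0.05, and 5 of them lay below control. Both Jmjd3 KO libraries lay above both controls in 4 of the 13 (26.2% of all genes did so) and below in 2. Against Utx KO they lay above in 13 of 13 (28.6% of all genes), with a median of 0.49. In that comparison 10 of 10 tested neutrophil and 9 of 10 mature fibre markers lay above 0, and 8 of 10 satellite cell markers below. It is also the only comparison in which the main edgeR fit called Il6ra, Osm and Ptpn6. Cd14 was the largest part of the sum in every library, so the sum does not give the order of the other markers. Both Jmjd3 KO libraries had the highest macrophage sums, and also the highest sums of fibro-adipogenic, satellite cell and mature fibre markers. Lif, Osm and Ptpn6 were highest in the same libraries. These marker lists share the order but not the size of the differences. The neutrophil sums of Jmjd3 KO overlapped those of Utx KO. Which cells the transcripts of Lif, Il6ra, Osm and Ptpn6 came from was not tested. The 10 mature fibre markers summed to 5502 and 5736 CPM in the controls, 7200 and 7682 in the Jmjd3 KO libraries and 5064 and 5909 in the Utx KO libraries. Endothelial and mural markers did not go this way: against control, 9 of 10 and 4 of 5 lay below it in Jmjd3 KO (medians -0.09 and -0.02). In Utx KO 9 of 10 and 5 of 5 did so (-0.33 and -0.41). Of these markers, edgeR called 0 against control, and DESeq2 called 1, Cdh5, lower in Utx KO. An unadjusted edgeR p under 0.05 was seen for 1 and 0 in Jmjd3 KO (3410 of all 17084 genes) and for 5 and 4 in Utx KO (2768 of all genes). Among the 10 satellite cell markers, whose sum changed little, the intermediate filament gene Des rose in Jmjd3 KO (0.35 ± 0.04, edgeR adjusted p = 0.00446) and the myogenic regulator Myod1 fell (-0.22 ± 0.04, 0.0336). In Utx KO 2 of these markers rose and 1 fell. In these bulk samples, fewer cells of a type and less RNA per cell cannot be told apart, and the part of other cells in the values of the members was not tested.

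**Figure D5:**
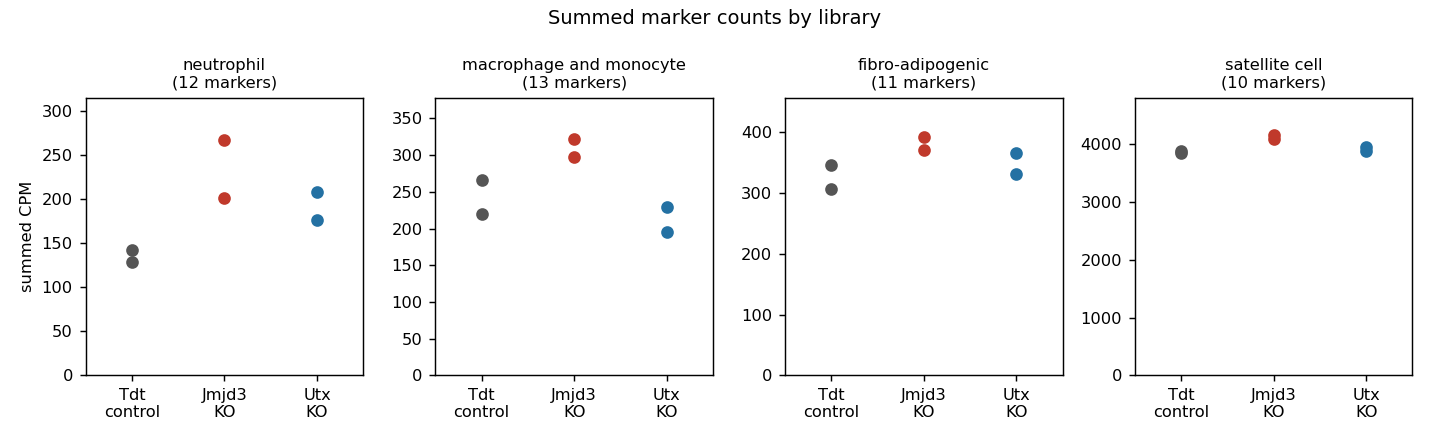
Summed CPM of 4 marker lists by genotype, 1 point per library (each vertical axis starts at 0). The neutrophil sums run from 129 to 143 CPM in Tdt control to 202 and 267 in Jmjd3 KO, while the satellite cell sums stay between 3851 and 4155 CPM.

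The genes whose pattern was most like that of the 2 ligands were found by Pearson correlation of log2 CPM over the 6 libraries, among 9688 protein-coding genes with a mean of at least 5 CPM. For Lif they included Lyn, a Src family kinase (r = 0.996), Slc25a28, a mitochondrial iron carrier (0.994), Rac2, a small GTPase of blood cells (0.994), and Atp2a3, a calcium pump (0.992). Lyn had 9.36 and 9.59 CPM in the Tdt control libraries, 13.2 and 11.6 in those of Jmjd3 KO and 8.74 and 8.99 in those of Utx KO, the same order of genotypes as Lif. For Il6 they were Acadsb, a mitochondrial acyl-CoA dehydrogenase (0.963), Zfp652, a zinc finger protein (0.962), Rnf11, a RING finger protein (0.962), Loxl2, a lysyl oxidase (0.961), and Steap4, a metalloreductase (0.958). The points are 6 libraries that share their depth and genotype, and the values are a description of these libraries only.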

How the data were processed

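Bulk RNA sequencing of total RNA gave 6 libraries, 2 per genotype. DESeq2 1.28.1, Salmon 1.1.0 and cutadapt 2.6, with the builds mm10 and GRCm38, appear in the submitters' processing notes without their roles, while the release of the annotation was not given in the sources used here. Estimated counts, TPM and lengths were deposited for each transcript, per the file headers. For both knockouts against control the authors deposited a table with, per the file headers, a mean signal (base mean), log2 fold changes, their standard errors, and raw and adjusted p-values.

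The estimated counts of a gene's transcripts were added up by GENCODE M21 (GRCm38), matched without version numbers, and rounded. Of 140748 transcripts, 139864 matched. One edgeR 4.0.16 fit (R 4.3.3) took all 6 libraries with TMM normalization, the tool's low-count filter and genotype as the term. Its common biological coefficient of variation was 0.0844. The quasi-likelihood test was adjusted by Benjamini-Hochberg over all 17084 genes, and a gene was called at an adjusted p under 0.05. Intervals are 95%. On simulated data of this design the share of false calls was above the nominal one.

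Results were recomputed without each library in turn, with the replicate number as a block, on protein-coding genes alone, with only the 4 libraries compared, with offsets for transcript length, with other filters (1 read, or 5 CPM in 2 libraries), with RLE or upper-quartile scaling, and in DESeq2 1.42.0. Promoters of all 8 members came from RefSeq (GRCm38.p6).

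The members and lists were chosen with earlier results of these data known. Named were the 8 members and the knockout targets, and in each role list up to 4 called genes per comparison by smallest p, or the gene with the highest TPM where none was called. The 5 genes most correlated with Il6 and with Lif were named too. A few of the genes so selected are not reported here. Jak1 was added after its values were seen.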

Additional observations from a re-analysis of the deposited data

How the results depend on the processing

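With 2 libraries per genotype and 3 residual degrees of freedom, small differences could not be told from the spread, and Il6 and Il6ra rested on 181 to 458 reads per library. Of the settings for single genes, 826 kept the direction and the side of the threshold, 49 crossed into a call, 61 lost one and 9 turned the sign; no scaling moved the median of all genes by more than 0.01 (log2), and the causes were not tested. In Jmjd3 KO against Tdt control, 513 genes were called in all, 1872 with no low-count filter, 1084 with DESeq2, 331 with transcript length offsets, and 113 to 434 with 1 library left out. Members called were 1, but 4 with no low-count filter, 2 with the filter of 5 CPM, with DESeq2 and with protein-coding genes only, 0 with length offsets, and 0 to 1 with a library left out. Other pathway genes called were 6, but 19 with no filter, 16 with DESeq2, 3 with length offsets, and 1 to 7 with a library left out. In Utx KO against Tdt control, 293 genes were called in all, 1399 with no filter, 695 with DESeq2, 131 with length offsets, 119 with only the 4 libraries, and 16 to 96 with a library left out. Members called there were 0, but 1 with no filter, and other pathway genes 0, but 9 with no filter, 8 with DESeq2 and 2 with protein-coding genes only. In Jmjd3 KO against Utx KO, 1370 genes were called in all, 2856 with no filter, 792 with length offsets, and 291 to 1387 with a library left out. Members called there were 2, but 6 with no filter, 4 with DESeq2, and 1 to 4 with a library left out, and other pathway genes 8, but 18 with no filter and 1 to 9 with a library left out. Same-numbered libraries did not deviate together (correlations of -0.0107, -0.00813 and -0.0532). With 2 libraries per genotype this shows no shared shift by number, but it cannot tell whether same-numbered libraries were prepared together. The replicate block left the members called at 1, 0 and 2, and moved all calls to 322, 133 and 948 in the 3 comparisons. Signs turned in Utx KO against control for Il6 with length offsets (-0.0085) and with a library left out (-0.32 to 0.45, below 0 without Tdt control replicate 1 and, at -0.012, without Utx KO replicate 1), and for Il6st with length offsets (0.23). With a library left out they also turned there for Socs3 (-0.20 to 0.041, above 0 without Tdt control replicate 2), Stat5a (-0.0075 to 0.080) and Myc (-0.021 to 0.24), both below 0 without Utx KO replicate 1. The others were Kdm6a in Jmjd3 KO against control with length offsets (0.11) and Pim1 between the knockouts (-0.0063 to 0.079, below 0 without Utx KO replicate 2).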
